A study of Mus musculus with 18 samples.

Results

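Untreated parental WEHI-231 cells were compared by RNA sequencing with untreated cells of 2 clones mutated in TFEB, #A-59 and #B-20. WEHI-231 is a murine line of immature B lymphoma cells. The 6 libraries without stimulation were taken from a series of 18 by their labels, 2 of parental cells, 2 of #A-59 and 2 of #B-20, and the other libraries were made after 6 or 18 h with F(ab')2 fragments against IgM. None of the 6 libraries used here had received the antibody, and each group was sequenced from 2 independent experiments. Both clones are labelled TFEB knockout and were raised from the parental line by electroporation of Cas9 ribonucleoproteins directed at Tfeb, followed by single cell dilution. Each of the 2 mutant groups is therefore 1 clone, and no clone with intact TFEB that went through the same steps was analysed here. Properties of a clone and consequences of its Tfeb mutation cannot be told apart in either comparison. Genes that moved the same way in both clones are described first and in most detail, and the differences between the clones are given beside them.

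TFEB is a basic helix-loop-helix leucine zipper transcription factor of the MiT/TFE family, to which TFE3 and MITF also belong. In nutrient-replete cells it is phosphorylated by mTORC1 and held in the cytosol by 14-3-3 proteins, and after dephosphorylation it enters the nucleus. There it binds E-boxes with the core CACGTG, in many promoters of lysosomal and autophagy genes as part of a longer palindrome termed the CLEAR element. In immature B cells a strong signal of the B cell receptor (BCR) leads to apoptosis, which makes WEHI-231 a common model of negative selection.

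The libraries held 15014347 to 29655262 counts on genes, with the lowest totals in #B-20. All 12 B cell markers listed for the check of identity were detected in each group, at a summed level of 11600 to 13800 counts per Mio (CPM), and 0 of them were called in either clone. The T cell genes Cd3e, Cd3d and Cd3g were at or below 0.0982 CPM on average in every group, whereas Lck, Zap70 and Cd8b1 were expressed in all 3 and Zap70 was called lower in #B-20. Of 10 myeloid markers, only Itgam exceeded a mean of 1 CPM in any group, and Cd14 and S100a8 had no count. Fold changes of #B-20 followed the GC content of the genes (Spearman's rho −0.344 over 15201 genes of the same libraries, against 0.05 in #A-59), with a median log2 change of 0.13 in the third of genes lowest in GC and −0.16 in the highest. Values after a correction for GC content are given below where they end a call.

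Genes were called when the quasi-likelihood test of edgeR gave a false discovery rate (FDR, Benjamini-Hochberg adjustment) under 0.01 and the log2 fold change was above 1 or below −1. All adjusted p-values below come from this test over the 15318 genes with enough counts. In bulk RNA, a lower share of cells that express a gene and less RNA in each cell cannot be told apart.

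Tfeb itself (chromosome 17, 47737037 to 47792416, GRCm38) was read at 79.2 and 82.8 CPM in the parental libraries, 25.9 and 25.5 in #A-59, and 34.2 and 39.1 in #B-20. Both clones were thus below both parental libraries and still held Tfeb reads, whose sequence a count per gene does not show. The log2 fold change was −1.65 ± 0.11 (SE, n = 2 libraries per group, adjusted p = 2.44e-09) in #A-59 and −1.14 ± 0.11 (adjusted p = 3.81e-07) in #B-20. After the GC correction the value of #B-20 was −0.79 and no longer past the fold limit. Tfe3, its closest relative in the family, stood at 53.1 and 60.6 CPM in parental cells, 60.4 and 54.8 in #A-59, and 54.1 and 59.9 in #B-20, with overlapping libraries. Mitf was low in all groups, with 1.70 and 1.70 CPM in parental cells, 4.10 and 4.71 in #A-59, and 2.48 and 2.23 in #B-20, and was called higher in #A-59 only (log2 1.36, adjusted p = 5.47e-05). Its difference between the clones passed the FDR but not the fold limit (log2 −0.90 for #B-20 against #A-59, adjusted p = 0.0051). The same held for Tfeb (log2 0.51, adjusted p = 0.00436, or log2 0.84 after the GC correction). Among the 28 tested genes of the TFEB family and the nutrient-sensing pathway upstream of it, Ppp3ca, which encodes a catalytic subunit of calcineurin, was the only further call (log2 −1.13 in #A-59 and −0.98, not called, in #B-20).

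Of the 15318 genes tested, 732 (4.78%) were called in #A-59, 352 higher (2.3%) and 380 lower (2.48%), and 790 (5.16%) in #B-20, 274 higher (1.79%) and 516 lower (3.37%). In both clones 358 genes (2.34%) were called in the same direction, of which 146 (0.953%) were higher and 212 (1.38%) were lower, and 22 (0.144%) were called in opposite directions. A further 352 genes were called in #A-59 alone and 410 in #B-20 alone. Both comparisons use the same 2 parental libraries, so that 1 parental library can move both. Without parental replicate 1 the shared count was 282, and without parental replicate 2 it was 276. At 6 h of stimulation 271 of the 358 were again called in the same direction in both clones, and at 18 h 246 were. Those libraries are of the same clones and the same parental line and stand in the same fit, so that they add no further clone. The share of all genes called alike at those times was not worked out. Among the 212 lower genes, 27 had at most 3 counts in each of the 4 clone libraries, and among the 146 higher genes 8 had at most 3 counts in each parental library. Protein-coding genes made up 132 of the higher and 189 of the lower genes.

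The genes were read through 31 lists of pathways and gene families, of which 21 held at least 1 gene called in the same direction in both clones. The plot of list medians gives their position in each clone beside that of all genes.

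**Figure D1:**
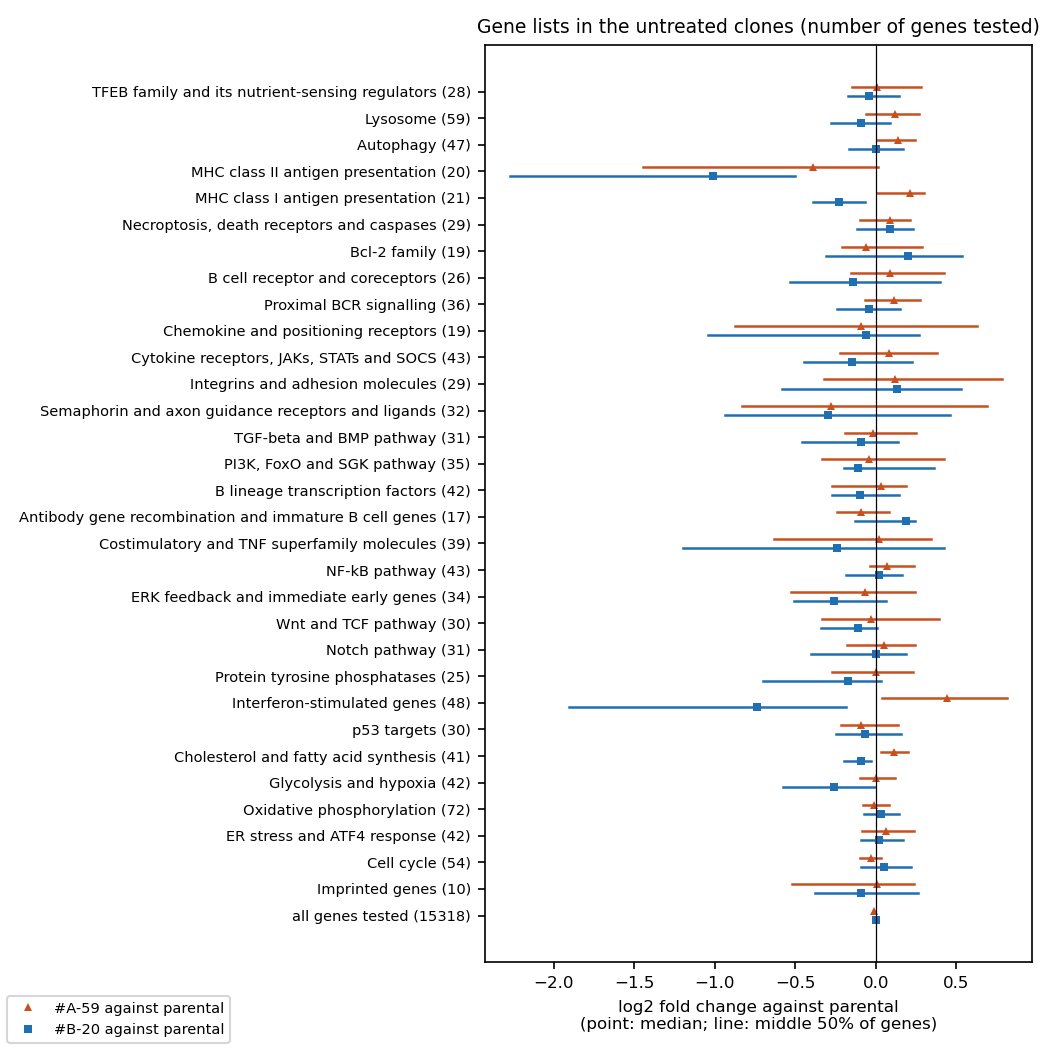
Median log2 fold change of each gene list in untreated #A-59 (triangles) and #B-20 (squares) against untreated parental cells, with lines over the middle 50% of the tested genes and the number of genes tested in brackets. Most medians lie near 0, the MHC class II list is at −0.39 in #A-59 and −1.01 in #B-20, while the interferon-stimulated genes lie at 0.44 in #A-59 and −0.74 in #B-20.

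Lysosome and autophagy genes are the best known transcriptional targets of TFEB. Lysosome genes were called at about the share of all genes, and no autophagy gene was called. None of the 59 tested lysosome genes was called in both clones. Ctsc and Smpd1 were called lower in #A-59 alone, and 3 genes, Gm2a and Lgmn among them, in #B-20 alone, which is 3.39% and 5.08% of the list against 4.78% and 5.16% of all genes. The median log2 change of the list was 0.12 in #A-59 and −0.09 in #B-20, or −0.03 in #B-20 after the GC correction. In #A-59 41 of the 59 lay above 0 and in #B-20 20 did, and 27 in each clone (45.8%, against 26.1% and 29.7% of all genes) had an unadjusted p under 0.05. Ctsc, the protease cathepsin C, which activates granule serine proteases, was read at 237 and 241 CPM in parental cells, 50.6 and 58.2 in #A-59, and 207 and 210 in #B-20. Its low level thus belonged to #A-59, with a log2 difference of 1.94 between the clones (adjusted p = 1.54e-10). Lgmn, the lysosomal endopeptidase legumain, fell to 12 and 16.2 CPM in #B-20 from 58.8 and 65.7 CPM in parental cells, with 37.0 and 37.8 CPM in #A-59. Of the 47 tested autophagy genes 0 were called in either clone, where 15 in #A-59 and 13 in #B-20 had an unadjusted p under 0.05 and DESeq2 also called 0. Their median was 0.14 in #A-59 and −0.00 in #B-20.

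The E-box CACGTG was searched in the RefSeq promoters (GRCm38.p6) from 250 bases before to 50 bases after the start, which 10237 of the tested genes had. It is its own reverse complement, so that both strands are read at once, and where a gene had several listed promoters the first was used. It stood in 9.99% of these promoters, in 14 of 45 lysosome promoters (31.1%), in 6 of 38 autophagy promoters (15.8%), in 6.67% of the promoters of genes higher in both clones and in 7.86% of those of genes lower in both. The longer form TCACGTG, which overlaps it and was read on either strand, stood in 5.95% of all, 31.1% of lysosome, 10.5% of autophagy, 4.76% of higher and 3.57% of lower promoters. The median GC content of the promoters was 60.7%, 59%, 59.7%, 55.7% and 59.3% in the same order, and the shares were not adjusted for it. Promoter stretches of 5 of the 14 lysosome genes with the motif are shown as examples, picked after their values were seen, with 55 to 134 bases between the first E-box shown and the start. Every E-box is in capitals and each sequence is on the strand of its gene. The whole Lamp1 promoter held 4 E-boxes and that of Mcoln1 2, and none of the 5 genes was called.
Lamp1, chr8:13159073-13159132, plus strand: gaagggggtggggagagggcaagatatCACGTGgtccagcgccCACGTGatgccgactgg
Mcoln1, chr8:3500421-3500480, plus strand: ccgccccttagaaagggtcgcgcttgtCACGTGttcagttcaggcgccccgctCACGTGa
Gaa, chr11:119267796-119267855, plus strand: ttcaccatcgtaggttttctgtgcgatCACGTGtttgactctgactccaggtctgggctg
Naglu, chr11:101069994-101070053, plus strand: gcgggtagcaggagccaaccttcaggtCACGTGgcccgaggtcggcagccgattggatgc
Atp6v1a, chr16:44139358-44139417, minus strand: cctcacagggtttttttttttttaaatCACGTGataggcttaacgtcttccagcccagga
Lamp1, the major glycoprotein of the lysosomal membrane, was read at 161 and 158 CPM in parental cells, 212 and 203 in #A-59, and 194 and 192 in #B-20. Its log2 change was 0.38 in #A-59 and 0.28 in #B-20, under the fold limit. Mcoln1, the lysosomal calcium channel TRPML1, was at 27.1 and 24.9 CPM, 36.3 and 30.9 CPM, and 29.7 and 26.7 CPM in the same order. The acid α-glucosidase gene Gaa changed by −0.04 in #A-59 and −0.57 in #B-20, Naglu, which acts in heparan sulfate breakdown, by −0.32 and −0.73, and the V-ATPase subunit gene Atp6v1a by 0.23 and 0.19, none of them called. Over the 14 lysosome genes with the motif, 0 were called in either clone, and the log2 changes ran from −0.32 to 0.38 in #A-59 and from −0.73 to 0.28 in #B-20.

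Among the genes called lower in both clones, 11 of 140 had the motif. Of the named genes changed in both clones 7 had it, the lower genes Ripk3, Irs2, Tnfrsf8 and Radx and the higher genes Slc16a12, Arhgap15 and Irak3, and 6 are shown to set their E-boxes beside those of the lysosome genes. That of Irak3 lies behind the start and is not shown.
Ripk3, chr14:55788886-55788945, minus strand: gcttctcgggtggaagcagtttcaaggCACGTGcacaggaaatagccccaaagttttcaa
Irs2, chr8:11008941-11009000, minus strand: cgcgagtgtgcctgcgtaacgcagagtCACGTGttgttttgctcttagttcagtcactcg
Tnfrsf8, chr4:145315251-145315310, minus strand: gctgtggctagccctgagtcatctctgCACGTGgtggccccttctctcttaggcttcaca
Radx, chrX:139480212-139480271, plus strand: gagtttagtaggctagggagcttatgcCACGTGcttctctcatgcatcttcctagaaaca
Slc16a12, chr19:34747536-34747578, minus strand: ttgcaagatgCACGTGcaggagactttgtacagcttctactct
Arhgap15, chr2:43748785-43748844, plus strand: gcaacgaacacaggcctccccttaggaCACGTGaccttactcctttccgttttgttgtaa
The values of these genes are given with their groups below. Of the 7, Irs2, Arhgap15 and Irak3 had the longer form. Over all tested genes with the motif, 4.11% were called in #A-59, 3.81% in #B-20 and 1.76% in the same direction in both, against 5.09%, 5.62% and 2.46% of the genes without it.

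Several genes of MHC class II antigen presentation, Ciita among them, were lower in both clones, and lower in #B-20 than in #A-59. Class II molecules are heterodimers that present peptides from endosomes to CD4+ T cells, and CIITA is the coactivator that most of their genes depend on. Of 20 tested genes, 5 (25%) were lower in both clones (1.38% of all genes were), Ciita, H2-Aa, H2-Ab1, H2-Ea and H2-Eb1, and 0 were higher in either. In #A-59 6 of the 20 had a log2 change above 0, and in #B-20 1 had. Ciita stood at 25.0 and 28.3 CPM in parental cells, 7.58 and 9.63 in #A-59, and 1.47 and 1.55 in #B-20. The 3 groups did not overlap, and the log2 change was −1.64 ± 0.16 (SE, adjusted p = 3.73e-07) in #A-59 and −4.13 ± 0.22 (adjusted p = 7.54e-11) in #B-20. H2-Aa, which encodes the α chain of I-A, was read at 68.2 and 101 CPM in parental cells, 9.38 and 14.1 in #A-59, and 1.67 and 2.05 in #B-20. Its partner H2-Ab1, the β chain of I-A, went from 217 and 361 counts (7.85 and 14.9 CPM) to 29 and 28 counts in #A-59 and 1 count in each library of #B-20. The ratio of parental cells to #B-20 was 173 with a counting interval of 47.8 to 1430. H2-Ea fell from 38.7 and 58.6 CPM to 4.94 and 5.23 in #A-59 and to 0.201 and 0.806 in #B-20. H2-Eb1, the β chain of I-E, had the smallest change of the 5, with 76.9 and 119 CPM in parental cells, 36.2 and 39.2 in #A-59, and 14.4 and 16.6 in #B-20. H2-Ab1, H2-Aa and H2-Eb1 were neighbours among the tested genes (chromosome 17, 34263227 to 34316674), and reads of such close relatives can be shared, which was not resolved. Reads of Ciita can include the overlapping gene Dexi, since the libraries carry no strand.

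The difference between the clones was called for all 5 of these genes, with log2 values of #B-20 against #A-59 between −1.28 (H2-Eb1) and −4.08 (H2-Ab1). Within the list 7 of 20 genes were lower in #B-20 than in #A-59 (35%, against 2.57% of all genes lower in that comparison) and 0 were higher. A further 4 genes were called lower in #B-20 alone, and the clones differed by the call rule in Cd74 and Lgmn but not in H2-DMa and H2-Ob. Cd74, the invariant chain that guides class II molecules to endosomes, was at 823 and 983 CPM in parental cells, 826 and 831 in #A-59, and 326 and 411 in #B-20. #B-20 was thus below the other 4 libraries, whereas #A-59 overlapped the parental range. The peptide exchange factor subunit H2-DMa (log2 −1.32 in #B-20) and the β chain of its modulator H2-DO, H2-Ob (−1.24), changed by −0.41 and −0.38 in #A-59. Lgmn, described above, is the ninth gene lower in #B-20. Among the class II genes called in both clones, the same calls were made at 6 h and 18 h of stimulation for H2-Aa, H2-Ab1 and H2-Ea, and at 6 h but not 18 h for Ciita and H2-Eb1.

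**Figure D2:**
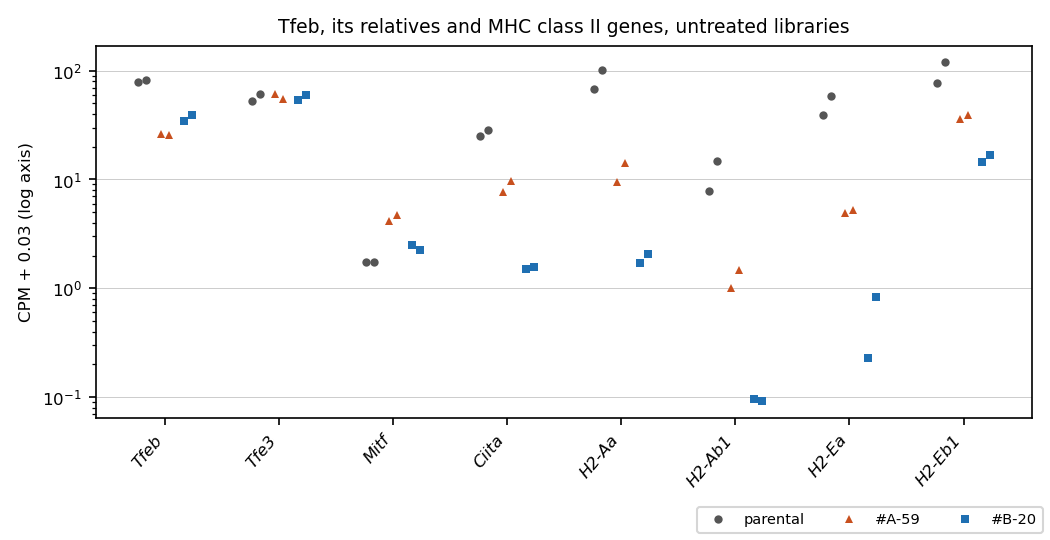
Counts per Mio in each untreated library, with 0.03 added, on a log axis (circles parental cells, triangles #A-59, squares #B-20, 2 libraries each). Tfeb is lower in both clones, Tfe3 overlaps, and the class II genes and Ciita fall in steps from parental cells over #A-59 to #B-20, down to 0.062 CPM for H2-Ab1.

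Genes of MHC class I presentation were called at about the share of all genes. Of 21 tested genes 1 was called in both clones (4.76%, against 2.34% of all genes), and no other was called in either (4.76% in each, against 4.78% and 5.16%). The clones lay apart, with 17 of the 21 above 0 in #A-59 (median log2 change 0.21) and 1 in #B-20 (median −0.23, or −0.09 after the GC correction). The lowest value in #B-20 was −3.36, not called against parental cells. Between the clones 1 of the 21, not H2-M3, was called lower in #B-20 (4.76%, against 2.57% of all genes). The gene called in both clones was H2-M3, a non-classical class I gene. It had 5.68 and 5.88 CPM in parental cells, 2.91 and 2.74 in #A-59, and 2.01 and 2.29 in #B-20. Its log2 change of −1.02 in #A-59 lay at the fold limit, and the call was lost without either replicate of #A-59 or of parental cells (−0.98 to −1.07).

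Interferon-stimulated genes separated the clones. These genes are induced by type I or II interferon and include the OAS enzymes, which sense double-stranded RNA. Of 48 tested genes, 37 had a log2 change above 0 in #A-59 and 5 in #B-20. In #A-59 5 were called higher and 0 lower (10.4% of the list, against 4.78% of all genes). In #B-20 1 was called higher and 12 lower (27.1%, against 5.16%). The median was 0.44 in #A-59 and −0.74 in #B-20, or −0.63 in #B-20 after the GC correction. Compared directly, 20 of 48 genes (41.7%, against 2.57% of all genes) were lower in #B-20 than in #A-59 and 0 were higher. Oas2 was at 13.1 and 11.7 CPM in parental cells, 35.0 and 28.3 in #A-59, and 2.28 and 1.98 in #B-20, and was called in opposite directions (log2 1.35 and −2.54). Oasl1 behaved alike, with 7.49 and 7.53 CPM, 21.3 and 19.1 CPM, and 2.54 and 2.91 CPM. Oas3 had 17 and 14 counts in parental cells, 65 and 35 in #A-59 and none in #B-20. Close relatives of the Oas family can share reads. Irf7, the interferon-induced transcription factor, was at 134 and 120 CPM in parental cells, 184 and 140 in #A-59, and 53.5 and 47.6 in #B-20. Ifi27 fell from 102 and 96.8 CPM to 20.3 and 17 CPM in #B-20 and remained at 99.3 and 101 CPM in #A-59. The 1 gene of the list that rose in both clones was Samd9l, an antiviral and growth-restraining gene, from 116 and 137 CPM to 399 and 499 CPM in #A-59 and 345 and 364 CPM in #B-20.

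**Figure D3:**
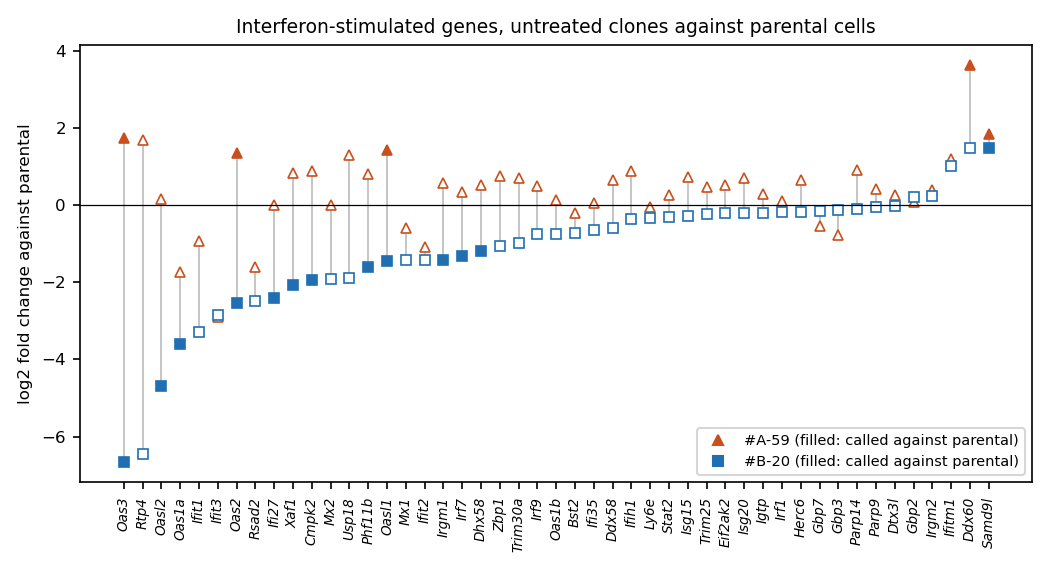
Log2 fold change of 47 of the 48 tested interferon-stimulated genes in #A-59 (triangles) and #B-20 (squares) against parental cells, ordered by #B-20, with filled symbols for called genes. Most triangles lie above 0 and most squares below it, 37 of the 48 tested genes being above 0 in #A-59 and 5 in #B-20, whereas Samd9l is filled above 0 in both.

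Among genes of cell death, Ripk3 was nearly silent in both clones. RIPK3 is the kinase that phosphorylates MLKL in necroptosis. Its level was 16.6 and 17.7 CPM in parental cells, 0.677 and 0.311 in #A-59, and 0.469 and 0.310 in #B-20, a log2 change of −5.01 ± 0.30 (SE, adjusted p = 4.41e-10) and −5.45 ± 0.35 (adjusted p = 1.19e-09). The clones did not differ by the call rule (log2 −0.44). It was the 1 gene of 29 tested in the necroptosis, death receptor and caspase list that was lower in both (3.45%, against 1.38% of all genes). Fas was called in opposite directions and is described with the other such genes, and Tnfrsf10b, a TRAIL receptor, was called lower in #A-59 only (log2 −1.35, and −0.65 in #B-20).

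In the Bcl-2 family, 3 of 19 tested genes (15.8%, against 2.34% of all genes) were called in the same direction in both clones. The 2 that were higher, Bmf and Pmaip1, are pro-apoptotic BH3-only genes. Bmf, whose protein is held at the cytoskeleton until released, was at 3.36 and 4.84 CPM in parental cells, 18.0 and 18.3 in #A-59, and 15.7 and 19.2 in #B-20. The log2 change was 2.15 ± 0.17 (SE, adjusted p = 2.29e-08) in #A-59 and 2.10 ± 0.17 (adjusted p = 4.06e-08) in #B-20. Pmaip1, which encodes NOXA and is also a p53 target, rose from 118 and 111 CPM to 221 and 271 and to 270 and 273. Its call in #A-59 was lost without #A-59 replicate 2 (log2 0.95 in place of 1.10). Bcl2l15, a little-studied member of the family, fell from 239 and 250 CPM to 3.56 and 3.83 in #A-59 and to 9.04 and 6.70 in #B-20. Its loss was deeper in #A-59, with a called difference of 1.09 between the clones. Bik was called higher (log2 1.34) and Bcl2l14 lower (−1.22) in #A-59 alone. The other 14 of the 19 tested members, among them the anti-apoptotic genes Bcl2, Bcl2l1 and Mcl1, were called in neither clone. Over all 19, an unadjusted p under 0.05 was found for 9 in #A-59 (47.4%) and 14 in #B-20 (73.7%), against 26.1% and 29.7% of all genes. Of the 30 tested p53 targets, Pmaip1 was the 1 called in the same direction in both (3.33%, against 2.34% of all genes).

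Of 26 tested genes of the B cell receptor and its coreceptors, 3 (11.5%, against 2.34% of all genes) were called in the same direction in both clones. In #A-59 these 3 were the only calls (11.5%, against 4.78%), and in #B-20 8 genes were called (30.8%, against 5.16%). The 2 immunoglobulin λ constant genes Iglc1 and Iglc3 were lower in both clones. Iglc1 went from 6.04 and 7.82 CPM to 0.305 and 0.518 CPM in #A-59 and 0.268 and 0.248 CPM in #B-20, and Iglc3 from 30.2 and 31.9 CPM to 13.6 and 14.7 and to 15.5 and 15.1. The segments lie next to each other within the Igl locus and are closely related, so that their reads may be shared. In #B-20 the Iglc3 value was at the fold limit, and it lost the call without #B-20 replicate 2 (−1) or parental replicate 2 (−0.98). Siglecg, an inhibitory coreceptor of the BCR, rose from 20.1 and 20.6 CPM to 54.0 and 55.5 CPM in #A-59 (log2 1.42 ± 0.09, SE, adjusted p = 6.88e-10) and to 47.0 and 52.3 CPM in #B-20 (log2 1.28 ± 0.09, adjusted p = 3.88e-09). In #B-20 alone Cr2 and Fcrl1 were higher and Cd38, Fcrl5 and Fcmr lower. Fcmr, the Fc receptor for IgM, was at 61.1 and 70.3 CPM in parental cells, 35.3 and 31.7 CPM in #A-59 (log2 −0.97, just under the limit) and 9.37 and 9.11 CPM in #B-20. Of 36 tested genes of proximal BCR signalling, the kinases and adaptors downstream of the receptor, only the phosphatase gene Ptpn22 was called, and only in #A-59 (log2 1.01, at the limit). That is 2.78% of the list in #A-59 and 0% in #B-20, against 4.78% and 5.16% of all genes. An unadjusted p under 0.05 was found for 17 of the 36 in #A-59 (47.2%) and 20 in #B-20 (55.6%), against 26.1% and 29.7% of all genes.

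Of 19 tested chemokine and positioning receptors, 1 was lower and 1 higher in both clones (10.5%, against 2.34% of all genes). Cxcr4, the receptor for CXCL12 that retains B lineage cells in marrow and in the dark zone of germinal centers, fell from 63.9 and 51.0 CPM to 11.3 and 8.59 in #A-59 and to 19.7 and 12.5 in #B-20. The log2 change was −2.52 ± 0.23 (SE, adjusted p = 7.78e-07) and −1.84 ± 0.23 (adjusted p = 2.10e-05). Ackr4, a scavenging receptor for CCL19 and CCL21, rose from 0.687 and 0.621 CPM to 1.63 and 2.23 and to 3.15 and 3.22. Its reads can include the overlapping Acad11. The #A-59 call of Ackr4 was lost without #A-59 replicate 2 (log2 1.31) or either parental library (1.46 and 1.60). Il10ra, the ligand-binding chain of the IL-10 receptor, was the 1 of 43 genes of cytokine receptors, JAKs, STATs and SOCS proteins that was higher in both, with 0.832 and 0.828 CPM in parental cells, 10.9 and 9.89 in #A-59, and 3.28 and 2.91 in #B-20. The clones differed by a log2 value of −1.75. Il10ra and Socs5 were the genes of this list called in the same direction in both clones (4.65%, against 2.34% of all genes). Socs5 was called lower in both at log2 values of −1.01 and −1.06, a call that was lost with DESeq2 and without any 1 of the compared libraries (−0.86 to −1.21).

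In the list of integrins and adhesion molecules 24.1% of the 29 tested genes were called in each clone, against 4.78% and 5.16% of all genes, and 3 (10.3%, against 2.34%) in the same direction. Itgb3, the integrin β3 chain, fell from 31.9 and 36.1 CPM to 0.745 and 0.466 in #A-59 and to 1.87 and 1.74 in #B-20. Cdh17, a cadherin expressed on B cells, rose from 7.34 and 9.23 CPM to 40.4 and 49.2 and to 62.2 and 70.5. Itgam, the αM chain of Mac-1, rose from 1.12 and 1.45 CPM to 7.18 and 9.06 in #A-59 and to 2.68 and 3.91 in #B-20, which was a called difference between the clones. Its call in #B-20 was lost without #B-20 replicate 2 (log2 1.06) or parental replicate 1 (1.19). As Itgam also marks myeloid cells, the other markers of that list are relevant: Lyz2, Csf1r, Mpo, Elane, Ly6c2, S100a8, S100a9 and Cd14 were each at or below 0.163 CPM on average in every group, and Adgre1 was at 0.353 to 0.682 CPM.

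Receptors of axon guidance, several of which also guide leukocytes, were among the lists with the highest share of calls. Of 32 tested genes 3 were higher and 3 lower in both clones (18.8%, against 2.34% of all genes). Nrp2, a coreceptor of class 3 semaphorins and of VEGF, rose from 8.72 and 8.23 CPM to 123 and 129 in #A-59 and to 137 and 159 in #B-20. This was a log2 change of 3.89 ± 0.14 (SE, adjusted p = 7.20e-13) and 4.13 ± 0.14 (adjusted p = 4.14e-13). The semaphorin receptors Plxna2 and Plxnc1 rose by log2 values of 1.61 to 2.10, whereas Plxna1 fell by 2.17 in #A-59 and 1.40 in #B-20 on the log2 scale. Without either #B-20 library or parental replicate 1 the call of Plxna1 in #B-20 was lost (−1.18 to −1.46). Unc5a, a netrin receptor, had 38 and 33 counts in parental cells and none in any clone library, which is at least 10.7-fold lower in #A-59 at a floor of 3 counts per library, and at least 7.08-fold in the less deeply read #B-20, and its reads can include those of the overlapping Hk3. Efnb1, the transmembrane ligand ephrin-B1, was lower by 1.03 in each clone at the limit of a call. Its call ended in #B-20 with the GC correction (−0.73), in #A-59 without #A-59 replicate 2 (−0.95), and in both without parental replicate 2 (−0.80).

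Smad1 showed one of the deepest losses. SMAD1 transmits signals of BMP receptors. Its level was 550 and 612 CPM in parental cells, 0.169 and 2.23 in #A-59, and 3.01 and 2.05 in #B-20. All 4 clone libraries lay far below the parental ones, and the log2 change was −9.15 ± 0.80 (SE, adjusted p = 2.91e-05) in #A-59 and −7.85 ± 0.74 (adjusted p = 5.37e-05) in #B-20. The 2 libraries of #A-59 themselves lay far apart, and fitted with only the 4 libraries compared, its adjusted p in #A-59 was 1.45e-02. Bmpr2, the type II BMP receptor, rose from 6.94 and 7.41 CPM to 34.0 and 38.9 in #A-59 and to 25.9 and 22.1 in #B-20. These were the calls among 31 tested genes of the TGF-β and BMP pathway (6.45% in the same direction in both clones, against 2.34% of all genes).

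In the PI3K, FoxO and SGK list, 2 of 35 tested genes were higher and 3 lower in both clones (14.3%, against 2.34% of all genes). Irs2, an insulin receptor substrate that recruits PI3K, fell from 160 and 163 CPM to 36.7 and 32.3 in #A-59 and to 40.0 and 36.7 in #B-20 (log2 −2.22 ± 0.12, SE, adjusted p = 1.65e-10, and −2.07 ± 0.12, adjusted p = 5.89e-10). Inpp4b, a phosphoinositide 4-phosphatase that limits PI3K signals, fell from 11.2 and 12.2 CPM to 4.4 and 4.5 and to 5.35 and 5.77. Trib2, a pseudokinase that promotes degradation of C/EBPα, fell from 61.6 and 56.5 CPM to 10.4 and 8.96 and to 16.1 and 13.2. The kinase gene Sgk1 rose from 0.325 and 0.745 CPM to 2.40 and 2.85 in #A-59 and to 5.56 and 6.76 in #B-20, with a called difference between the clones. Sgk2, its relative, had no count in parental cells and 2 to 10 counts in the clone libraries, in #A-59 at least 2.79-fold and in #B-20 at least 1.91-fold higher, and lost its call with DESeq2. Without #A-59 replicate 1, #B-20 replicate 2 or either parental library, its adjusted p in at least 1 clone was between 0.01 and 9.54e-02.

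Of 42 tested transcription factors of the B lineage, 2 were higher and 2 lower in both clones (9.52%, against 2.34% of all genes). Lef1, a partner of β-catenin that is active in early B cells, rose from 1.37 and 1.74 CPM to 3.45 and 3.68 in #A-59 and to 7.43 and 9.61 in #B-20. The clones differed by a log2 value of 1.26, and the call in #A-59 was lost without parental replicate 1 (1.03). Lmo2, a bridging factor expressed in germinal center B cells, rose from 60.5 and 80.4 CPM to 147 and 171 and to 151 and 196. Its call in #A-59 was lost without parental replicate 1 (0.99 in place of 1.18). Runx2 fell from 15.9 and 17.9 CPM to 1.83 and 1.97 and to 4.62 and 3.29, and Bhlhe40, a transcriptional repressor tied to the circadian clock, from 18.0 and 17.1 CPM to 5.08 and 3.99 and to 4.62 and 2.42. Reads of Runx2 can include the overlapping Supt3. Markers of plasma cells gave 0 calls among 4 tested genes.

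Costimulatory and TNF superfamily molecules were mostly lower where called in both clones, 5 lower and 1 higher of 39 tested (15.4%, against 2.34% of all genes, 1.38% lower and 0.953% higher). Tnfrsf8, which encodes CD30, had 446 and 485 counts in parental cells (16.1 and 20.1 CPM), 4 and 2 counts in #A-59 and 1 count in each #B-20 library. The ratio of parental cells to #B-20 was 279 with a counting interval of 77 to 2310. Its neighbour Tnfrsf1b, the gene of TNF receptor 2, fell from 3.29 and 2.44 CPM to 1.42 and 0.621 in #A-59 and to 0.402 and 0.434 in #B-20, and the #A-59 call was lost without #A-59 replicate 2 or either parental library (log2 −1.01 to −1.61). Cd274, the checkpoint ligand PD-L1, was at 9.37 and 12.2 CPM in parental cells, 3.79 and 3 in #A-59, and 5.29 and 3.91 in #B-20. In #B-20 its call was lost without #B-20 replicate 2 or parental replicate 2 (−1.03 each), and its reads can include the overlapping Plgrkt. Of the SLAM family receptors, which tune contacts between lymphocytes, Slamf1 and Ly9 were lower and Cd84 was higher in both. Slamf1 fell from 2.03 and 2.94 CPM to 0.372 and 0.362 and to 0.469 and 0.682, and Cd84 rose from 0.759 and 1.16 CPM to 3.49 and 4.19 and to 3.21 and 3.47. Ly9 had 21 and 13 counts in parental cells and 1 count in all clone libraries together. The calls of Ly9 were lost with DESeq2 and without any 1 of the compared libraries (adjusted p from 1.16e-02 to 8.03e-02), that of Slamf1 in #B-20 without either #B-20 library or parental replicate 2 (log2 −1.80 to −2.39), and that of Cd84 in #B-20 without parental replicate 1 (1.52).

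Other calls shared by both clones fell in the NF-κB (4.65%), ERK (2.94%), Wnt (13.3%), Notch (6.45%) and phosphatase (8%) lists. Of all genes 2.34% were called alike. In the Wnt list, 20% of 30 tested genes were called in #A-59 and 23.3% in #B-20, against 4.78% and 5.16% of all genes. Tnip3 and Irak3, both inhibitors of Toll-like receptor signals to NF-κB, were the 2 of 43 tested NF-κB genes called higher in both clones. Irak3 rose from 8.25 and 8.73 CPM to 47.6 and 50.4 in #A-59 and to 42.0 and 47.6 in #B-20, and Tnip3 from 0.289 and 0.166 CPM to 6.37 and 7.15 and to 1.87 and 2.42, a called difference between the clones. Of 34 ERK feedback and immediate early genes, Nr4a3, an orphan nuclear receptor induced by antigen receptors, was lower in both (2.10 and 2.73 CPM, 0.711 and 0.828 CPM, and 0.803 and 0.992 CPM). Its call was lost in #B-20 with DESeq2 and, in at least 1 clone, without #A-59 replicate 1, either #B-20 library or parental replicate 2 (log2 −1.22 to −1.58). In the Wnt list Tcf7l1 and Lef1 were higher and Rnf43 and Fzd4 lower. Rnf43, a ubiquitin ligase that removes Frizzled receptors, fell from 36.0 and 37.6 CPM to 10.2 and 8.75 in #A-59 and to 6.36 and 5.21 in #B-20. Fzd4, such a receptor, fell from 4.05 and 2.85 CPM to 0.914 and 0.570 and to 1.41 and 0.496. Its call in #B-20 was lost without #B-20 replicate 2 (−1.30) or parental replicate 1 (−1.60), and its reads can include the overlapping Tmem135. Tcf7l1 had 1 count in each parental library, 72 and 52 in #A-59 and 5 and 12 in #B-20. In #B-20 its ratio was 14.2 with a counting interval of 3.37 to 127, and that call was lost without any 1 of the libraries of #A-59 or parental cells or #B-20 replicate 2 (adjusted p from 1.07e-02 to 1.41e-01).

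In the Notch list the Deltex genes Dtx1 and Dtx4, ubiquitin ligases of that pathway, were lower in both clones. Dtx1 fell from 12.8 and 18.5 CPM to 5.11 and 5.33 in #A-59 and to 3.61 and 4.46 in #B-20, and Dtx4 from 9.40 and 7.61 CPM to 0.982 and 0.621 and to 0.669 and 0.310. Notch1 was called higher in #A-59 alone (log2 1.72, and 0.95 in #B-20). Of 25 tyrosine phosphatases, Ptpn13 was higher in both, from 7.92 and 8.85 CPM to 90.7 and 76.6 and to 136 and 117. Ptpn7, a phosphatase of ERK and p38 in leukocytes, was lower in both, from 30 and 36 counts to 7 and 4 counts in #A-59 and 3 and 1 counts in #B-20, and its reads can include the overlapping Ptprv.

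Lists of general cell functions held few calls. Among 72 tested genes of oxidative phosphorylation, 54 of the cell cycle, 42 of the ER stress and ATF4 response and 41 of cholesterol and fatty acid synthesis, 0 were called in either clone, against 4.78% and 5.16% of all genes. Unadjusted p-values under 0.05 were found for 4, 8, 13 and 13 of them in #A-59 and for 9, 16, 12 and 12 in #B-20, and DESeq2 called 0 in each of them as well. The widest range of log2 changes in these 4 lists was −1.13 to 0.54 in #A-59 and −1.10 to 0.95 in #B-20, both in the cell cycle list. Genes of cholesterol and fatty acid synthesis lay mostly above 0 in #A-59 (34 of 41, median 0.11) and mostly below it in #B-20 (8 of 41 above, median −0.09, or −0.03 after the GC correction). Of 42 genes of glycolysis and hypoxia, Pdk3 was lower in #A-59 and Aldoc and Eno3 in #B-20, with none in both.

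The largest changes shared by both clones, by a rule that ranked genes on the smaller of the 2 absolute changes, included genes of no list. Macc1, a regulator of MET expression, had 746 and 688 counts in parental cells, none in #A-59 and 0 and 2 in #B-20, which is at least 216-fold lower in #A-59. Radx, a single-stranded DNA binding protein at replication forks, fell from 122 and 137 CPM to 0 and 0.155 in #A-59 and to 0.669 and 0.620 in #B-20. Vwf, the von Willebrand factor gene, had 269 and 276 counts in parental cells and 1 count in each of the 4 clone libraries. Tnfrsf22, a decoy receptor for TRAIL, and Cd226, an activating receptor of lymphocytes, went from 126 to 189 counts per parental library to 5 or fewer in every clone library. Spata17 and Ovol1 were also among the lower genes. Spata17 fell from 11.1 and 12.4 CPM to 0.0339 and 0.0518 in #A-59 and to 0.335 and 0.372 in #B-20, and its reads can include the overlapping Gpatch2. The loss was deeper in #A-59 by a called log2 difference of 2.94. That call lay at the FDR limit (adjusted p = 0.00995) and rests on 1 count in each #A-59 library against 5 and 6 counts in #B-20. Ovol1, a zinc finger repressor, fell from 10.2 and 12.1 CPM to at most 0.372 CPM, and its reads can include the overlapping Ap5b1.

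Genes with the largest increases rose from low levels. Frmd4a, a scaffold of cell polarity, went from 0.868 and 0.497 CPM to 16.6 and 15 in #A-59 and to 10.7 and 10.9 in #B-20 (log2 4.5 ± 0.20, SE, adjusted p = 1.01e-11, and 3.95 ± 0.21, adjusted p = 9.03e-11). Slc16a12, a creatine transporter, rose from 0.289 and 0.207 CPM to 3.42 and 2.80 and to 5.15 and 7.07. Cp, the copper-carrying ferroxidase ceruloplasmin, rose from 2.42 and 2.19 CPM to 23 and 36.3 and to 23.2 and 31.4, with an overlapping gene, Hps3. Dpp4, the surface peptidase CD26 that cleaves chemokines, rose from 1.01 and 0.993 CPM to 10.5 and 12.9 and to 19.6 and 19.7. The cadherin-related Cdhr2 rose from 0.398 and 0.579 CPM to 16.9 and 15.6 in #A-59 and to 4.69 and 5.64 in #B-20, a called difference between the clones. Dab2ip, a Ras GTPase-activating protein, Rnf144b, a ubiquitin ligase, Elovl7, a fatty acid elongase, Unc5cl, a death-domain protein, and Arhgap15, a Rac GTPase-activating protein, rose by log2 values of 3.22 to 3.94 in #A-59 and of 3.27 to 3.52 in #B-20. The naming rule gave 73 genes called in the same direction in both clones. They were chosen by calls on these same libraries, so that clone and parental libraries lie apart in them largely by selection. The call was made again in both clones at 6 h for 63 of them and at 18 h for 57, and at neither time for Pmaip1, Sgk2, Lef1 and Slamf1. The libraries at those times are of the same clones and parental line, and no share of all genes was worked out for them.

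**Figure D4:**
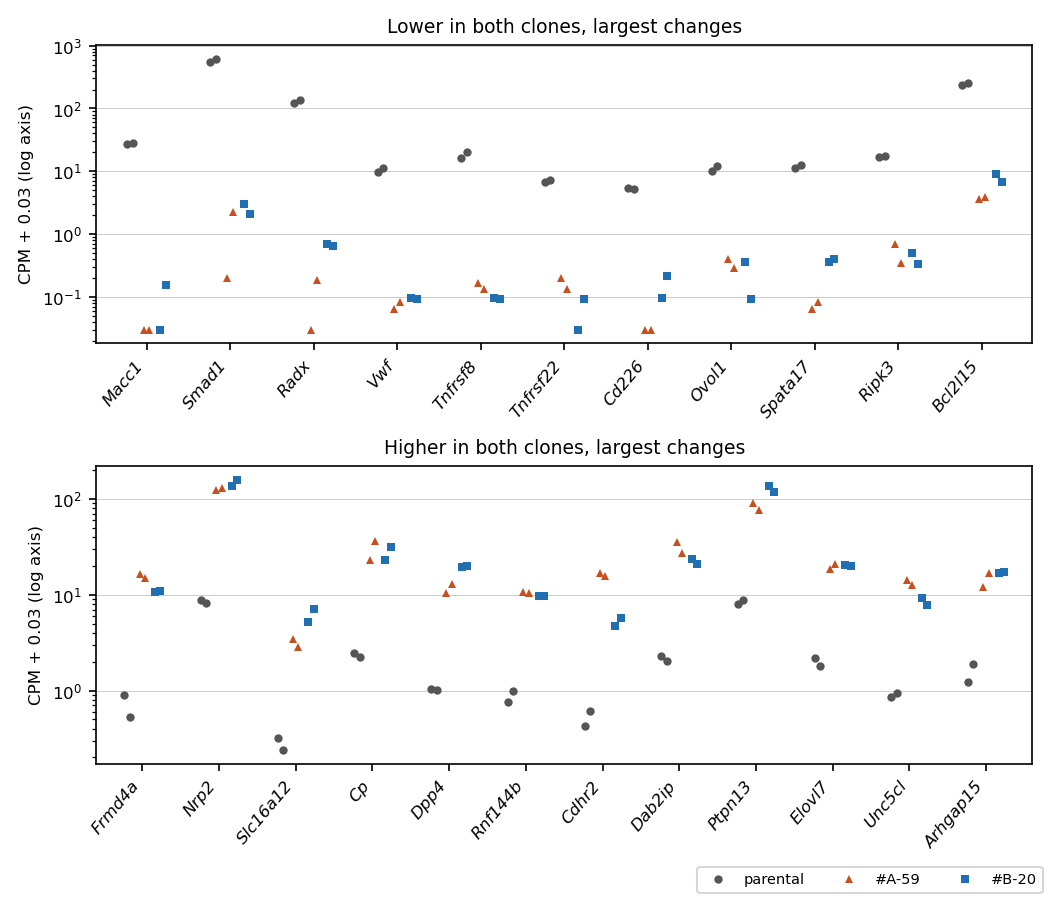
Counts per Mio, with 0.03 added, in each untreated library on a log axis, for 11 of the 12 genes with the largest decreases (top) and the 12 with the largest increases (bottom) shared by both clones. Parental libraries (circles) lie apart from those of #A-59 (triangles) and #B-20 (squares) in every gene, and the 2 #A-59 libraries of Smad1 lie at 0.169 and 2.23 CPM.

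Called genes lay across the genome. Over the autosomes and X, the median log2 change of a chromosome was between −0.04 and 0.02 in #A-59 and between −0.06 and 0.08 in #B-20, so that no whole chromosome was shifted. Among these chromosomes the share of genes called alike in both clones was highest on chromosome 1 (4.53% of 928 tested) and lowest on chromosome 8 (1.48%, with 1 higher and 11 lower). Several sets of neighbouring tested genes were called alike in both clones, and how many such sets would arise by chance was not tested. Among them were Padi4, Padi3 and Padi1 on chromosome 4, which encode enzymes that convert arginine to citrulline. Padi4 fell from 11.9 and 11.8 CPM to 5.32 and 5.44 in #A-59 and to 4.35 and 5.15 in #B-20, and Padi3 from 9.58 and 11 CPM to 4.74 and 4.30 and to 4.62 and 5.58. On chromosome 14, Ripk3 lies next to Nfatc4, which was also lower (log2 −2.52 and −1.75). On chromosome 5, the albumin family genes Afp and Afm both rose, Afp from 4.27 and 4.43 CPM to 11.3 and 12.2 and to 10.9 and 11.7, and Afm from 1 and 0 counts to 4 and 4.09 CPM and to 2.21 and 2.17 CPM. The Padi genes, Nfatc4, Afp and Afm were picked as neighbours after their values were seen.

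The clones also differed from each other. Between #B-20 and #A-59 589 genes (3.85%) were called, 196 higher (1.28%) and 393 lower (2.57%) in #B-20. Of the 358 genes that moved the same way in both clones, 51 (14.2%) were among them, with the deeper or stronger change in #B-20 for 27 and in #A-59 for 24. Of the 22 genes with opposite calls, 12 were higher in #A-59 and lower in #B-20. Mzb1, an ER chaperone of marginal zone B and plasma cells, was among the 5 largest of these, with 7.59 and 6.41 CPM in parental cells, 69.5 and 65.9 in #A-59, and 2.34 and 2.29 in #B-20. Klhl22, an adaptor of a cullin ubiquitin ligase, was at 12.4 and 12.5 CPM, 40.3 and 34.9 CPM, and 1.67 and 1.05 CPM. Hamp2, a hepcidin, Adamts6, an extracellular protease, and Ehhadh, an enzyme of peroxisomal fatty acid oxidation, followed the same order with at most 3 counts in each #B-20 library. In the other direction, Cstf2t, a cleavage stimulation factor subunit, was at 15.7 and 13.1 CPM in parental cells, 3.89 and 4.30 in #A-59, and 77.0 and 72.6 in #B-20, within the overlapping gene Prkg1. Stk26, a kinase of the germinal center kinase family, was at 7.96 and 7.99 CPM, 2.54 and 3.31 CPM, and 66.8 and 58.7 CPM, and Akr1e1, an aldo-keto reductase, at 2.13 and 2.07 CPM, no count, and 5.29 and 4.90 CPM. Reads of Stk26 can include the overlapping Frmd7. Cpeb1, which controls polyadenylation of mRNAs in the cytoplasm, had 23 and 24 counts, 1 and 1 counts, and 153 and 132 counts.

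Fas, the death receptor CD95, was at 0.904 and 0.579 CPM in parental cells, 0.271 and 0.155 in #A-59, and 6.89 and 7.87 in #B-20. The increase in #B-20 had a log2 value of 3.29 ± 0.27 (SE, adjusted p = 3.95e-08), whereas the decrease in #A-59 was −1.72 ± 0.44 (adjusted p = 9.92e-03) and was lost with DESeq2 and without any 1 of the 6 libraries (adjusted p from 1.01e-02 to 1.58e-01). Calls in #B-20 were also lost for Adamts6 without either #B-20 library or parental replicate 2 (log2 −2.64 to −2.99), for Hamp2 without #B-20 replicate 2 (−2.48) and for Akr1e1 without #B-20 replicate 1 or parental replicate 2 (1.22 and 1.25).

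**Figure D5:**
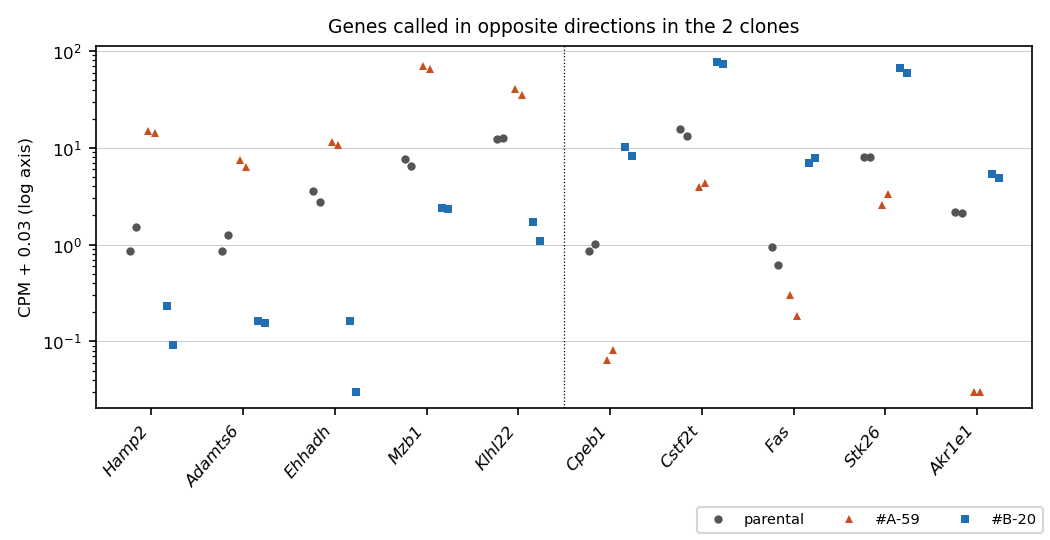
Counts per Mio, with 0.03 added, in each untreated library on a log axis, for the 10 genes with the largest opposite calls. Left of the dotted line #A-59 (triangles) is above and #B-20 (squares) below parental cells (circles), as for Mzb1 at 69.5 and 65.9 CPM against 2.34 and 2.29 CPM, and right of it the order is turned.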

How the data were processed

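Gene counts of 6 untreated libraries were analysed, 2 each of parental WEHI-231 cells, #A-59 and #B-20, grouped by their labels. The counts, as deposited by the authors, are whole reads per Ensembl gene without normalization, from non-stranded single-end mRNA libraries. The authors' processing notes name bcl2fastq 2.20.0.422, STAR 2.5, featureCounts 1.5.0-p1 and GRCm38. Counting options are not given in the sources used here. No entry lacks a gene identifier, so that reads lost before counting are not known.

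Counts were fitted in R 4.3.3 with edgeR 4.0.16 (filterByExpr, TMM, robust quasi-likelihood, 1 mean for each of the 9 groups of all 18 libraries, which share an estimate of the spread). Untreated groups were compared pairwise and p-values adjusted by Benjamini-Hochberg over 15318 genes. The limits, an FDR of 0.01 and a log2 fold change of 1, follow the study. CPM are TMM-scaled. A gene with no count is compatible with up to 3 counts per library, and intervals of ratios cover counting error only. Symbols and coordinates came from RefSeq on GRCm38 for 35992 of 55487 identifiers and symbols for 15739 more from GENCODE.

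The members and gene lists were chosen with earlier results of these data known. Named genes are Tfeb, Tfe3 and Mitf, list members called in the same direction in both clones, the 12 genes per direction with the largest smaller change and the 5 of each kind of opposite calls, from genes with a mean of at least 5 CPM in a group and a symbol other than a gene model's. Other genes are named as the calls of a list in 1 clone, as markers or as promoter examples, and were picked after their values were seen. A few genes that enter the counts and medians are not reported here by name, in the text or the plots. Replicates of a group differed by more than counting noise (chi-square of 7.04 to 12.9 per gene), so that none was counted as a duplicate. The alternatives were DESeq2 1.42.0, its size factors in edgeR, other filters on low counts, other sets of libraries in the fit, omission of each library, a block for the replicate number, a loess correction for GC content (span 0.5, GC known for 99.2% of genes), an FDR of 0.05 and a test against a fold of 1.5. The fits were tested on simulated counts of all 18 libraries, drawn from 1 mean per gene, with 200 genes changed in untreated #A-59 only. No effect of stimulation or of #B-20 was simulated, a simpler setting than the data. For #A-59 against parental cells, edgeR called 171 of the 200 and 1 other among 14790 genes, and DESeq2 160 and 2 others among 15318.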

Additional observations from a re-analysis of the deposited data

Results flagged for a closer look

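For 24 of the named genes the change from parental cells differed between the clones, by edgeR's quasi-likelihood test of #B-20 against #A-59 with the same limits as above. Values are log2 differences, #B-20 minus #A-59. Among genes lower in both clones, #B-20 was lower still for Ciita (−2.49), H2-Aa (−2.63), H2-Ab1 (−4.08), H2-Ea (−3.29) and H2-Eb1 (−1.28), while #A-59 was lower for Bcl2l15 (1.09) and Spata17 (2.94). The value of Spata17 rests on 1 count in each #A-59 library and 5 and 6 in #B-20, and that of H2-Ab1 on 1 count in each #B-20 library. Among genes higher in both, the increase was larger in #A-59 for Il10ra (−1.75), Itgam (−1.28), Tnip3 (−1.64), Tcf7l1 (−2.21) and Cdhr2 (−1.65), and larger in #B-20 for Sgk1 (1.24) and Lef1 (1.26).

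Genes called in opposite directions necessarily differ. Of those higher in #A-59, the values were −6.76 for Hamp2, −5.69 for Adamts6, −7.30 for Ehhadh, −4.87 for Mzb1 and −4.79 for Klhl22. Of those higher in #B-20, they were 7.62 for Cpeb1, 4.20 for Cstf2t, 5.01 for Fas, 4.44 for Stk26 and 9.74 for Akr1e1, the last resting on no count in either #A-59 library. Groups of 2 libraries are too small for the check on single samples that stand apart.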

How the results depend on the processing

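The number of genes called in the same direction in both clones was 358, and ranged from 250 with a test against a fold of 1.5 to 467 with an FDR of 0.05. DESeq2 gave 309, the filter at a mean of 1 CPM 290, no filter 381, the untreated libraries alone 373, the 4 libraries of each comparison 343 and the GC correction 352, of which 331 were among the 358. Leaving out 1 library at a time gave 276 to 301 for this count, 553 to 713 for #A-59, 574 to 778 for #B-20 and 397 to 566 between the clones. Between the clones the test against a fold of 1.5 gave 377 genes in place of 589. The value of Tfeb in #B-20 was −0.79 after the GC correction, and its range without 1 library was −1.25 to −1.05 (−1.69 to −1.62 in #A-59). Replicate numbers were not used to pair the samples in the main fit. The differences between replicates of 2 groups correlated across genes weakly but always above 0, at 0.05 to 0.096. Single genes could share a shift, as H2-Aa, higher in replicate 2 of each group, and Cxcr4, higher in replicate 1 of each. With a replicate block the shared count was 378, with 777 genes in #A-59, 847 in #B-20 and 629 between the clones. It ended the call of Tcf7l1 in #B-20.

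Of 2675 values of named genes under these alternatives, 2561 kept direction and side of the threshold, 114 kept the direction but lost the call, and 0 reversed. These are values against parental cells. Calls of single genes between the clones were not followed through the alternatives. Leaving out a library makes the lone library of that group take its spread from the other groups. The GC correction moved 28 of 64 list medians by more than the spread between replicates, including those of all genes (from −0.01 to 0.01 in #A-59 and from 0.00 to 0.05 in #B-20). In #B-20 it took the median of the PI3K list from −0.11 to 0.07, that of the B lineage factors from −0.10 to 0.02 and that of proximal BCR signalling from −0.04 to 0.09. The MHC class II median stayed at −0.94 there. Of the interferon-stimulated genes DESeq2 called 3 in #A-59 but 18 in #B-20, against 5 and 13 with edgeR. The totals of the #B-20 libraries, the lowest of the 6, limit what can be said of genes with few counts there.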

Other observations

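Some genes of the lists were called in 1 clone alone, with a called difference between the clones. They are given as values, picked after these were seen. Spred1, an inhibitor of the Ras and ERK pathway, had 264 and 232 counts in parental cells, 181 and 139 in #A-59 and 2 and 0 in #B-20. The integrin chain gene Itgb5 had 118 and 100, 68 and 45, and again 2 and 0 counts. Tnfrsf1a, the gene of TNF receptor 1, was at 5.97 and 5.67 CPM, 9.01 and 5.95 CPM, and 0.736 and 0.682 CPM in the same order, and Itgb7, the partner of the gut-homing integrin α4, at 44.4 and 56.1 CPM, 32.8 and 33.4 CPM, and 10.7 and 10.7 CPM.

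In #A-59 alone, Pdk3, a kinase that inhibits pyruvate dehydrogenase, fell from 30.1 and 27.6 CPM to 2.34 and 2.38 CPM, with 20.7 and 16.8 CPM in #B-20. The imprinted genes Plagl1 and Peg13 moved in opposite directions there, Plagl1 from 38.1 and 46.5 CPM to 105 and 117 CPM and Peg13 from 25.2 and 23.8 CPM to 7.18 and 7.20 CPM. Il13ra1, a chain of the IL-13 receptor, had 2 and 3 counts in parental cells, 52 and 26 in #A-59 and 0 and 2 in #B-20.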
